A study of Homo sapiens with 6 samples.

Results

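The 10 genes followed here belong to the NRF2 response and were chosen by name, with earlier results of these data known. They were measured in KO52, an established cell line from acute myeloid leukemia. They are NFE2L2, which encodes NRF2 itself, 7 genes long known as its targets (HMOX1, NQO1, GCLM, GCLC, TXNRD1, SRXN1 and SLC7A11), and the ferritin genes FTH1 and FTL. All 10 were found among the 60612 gene IDs of the deposited tables, and 9 of them were among the 15395 genes with enough counts to test. SRXN1 was not.

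NRF2 is a basic leucine zipper factor that is held down by KEAP1 and released by oxidants. It then pairs with a small MAF protein and binds antioxidant response elements near genes for glutathione synthesis, thioredoxin reduction, quinone reduction and heme and iron handling. The element resembles the site of AP-1, the family of JUN and FOS dimers, and BACH1 competes for it. Ferritin stores iron in a shell of heavy (FTH1) and light (FTL) chains, and its amount is also set at translation by iron regulatory proteins, which RNA levels do not show.

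All cells carried CEBPA mutations on both alleles and a doxycycline-inducible lentiviral pCW57.1 vector. It expressed a dominant negative C/EBP peptide (dnCEBP), a dominant negative FOS peptide (dnFOS) or nothing further (EV, the empty vector). Such peptides pair with members of their family and keep them off DNA. Per the study, transduced cells were treated with doxycycline and sorted for GFP before sequencing. Each of the 3 groups held 2 libraries. No source used here says whether these came from separate cultures, so p-values measure the spread between these libraries only. The edgeR fit used below shares part of that spread across genes. An SE or interval therefore does not come from a gene's own libraries alone.

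Total counts ran from 9862994 to 27663179 per library. RN7SL1 alone took 6.12% and 4.31% of counts in the dnFOS libraries and 7.75% to 7.94% in the other 4. The 2 dnFOS libraries were the shallowest. They also stood apart on the first principal component of log2 CPM (TMM-scaled counts per 1e6 counts of a library), which held 40.1% of the variance, at 26.6 and 49.6 against -23.4 to -13.7 in the other 4. All 8 myeloid blast markers were detected. Their summed level was 1255 to 1286 CPM in dnFOS, 1267 to 1317 in dnCEBP and 1381 to 1459 in EV. The sum hides opposite moves. MPO went from a mean of 217 CPM in EV to 58.2 in dnCEBP and 146 in dnFOS. PTPRC went from 400 to 491 and 317. Against EV, 2 of the 8 were called lower in dnCEBP and none higher (edgeR adjusted p under 0.05). In dnFOS 3 were called lower and 1 higher. Of all genes 1.07% were called in dnCEBP and 15.0% in dnFOS. Of 8 erythroid markers 5 were detected, summing to 0.967 to 3.19 CPM in dnFOS, 3.81 to 4.03 in dnCEBP and 3.15 to 3.75 in EV, with HBA2 and HBG1 among those at 0. The 8 macrophage markers together had 1 to 3 counts in each dnFOS and dnCEBP library, at or under the floor of 3 counts, and 10 and 19 counts in EV (0.420 and 0.870 CPM), with CD163 and VSIG4 at 0. Lymphoid markers (6 of 7 detected, MS4A1 at 0) summed to 114 to 130 CPM in dnFOS, 170 to 174 in dnCEBP and 146 to 154 in EV. Most of this was CD3D, with a mean of 97.3 CPM in dnFOS, 146 in dnCEBP and 118 in EV. Epithelial markers (5 of 6 detected, CDH1 at 0) summed to 67.3 to 72.0 CPM in dnFOS, 78.4 to 78.9 in dnCEBP and 72.5 to 87.6 in EV. Whether depth, the RN7SL1 share or these marker levels had a part in the results that follow was not tested. In bulk samples, fewer cells of a type and less RNA per cell cannot be told apart.

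The antioxidant response element is the DNA sequence that NRF2 binds, and the AP-1 site resembles it. The promoters were searched for the element, and for sites of AP-1 and C/EBP, the families of the 2 peptides. RefSeq promoter windows on GRCh38.p14, from 250 bases before to 50 after a start, were at hand for 7 genes (9 windows). The search was for the element's core TGACNNNGC on both strands, with N any base. GCLM and TXNRD1 held it, in 3 of the 9 windows, against 13.3% of all 35116 windows. Those runs are shown here, with the core in capitals and as the gene's strand reads.

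GCLM, chr1:93909431-93909524, minus strand: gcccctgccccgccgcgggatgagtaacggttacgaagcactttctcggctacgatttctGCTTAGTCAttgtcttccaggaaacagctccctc
TXNRD1, first window, chr12:104215620-104215748, plus strand: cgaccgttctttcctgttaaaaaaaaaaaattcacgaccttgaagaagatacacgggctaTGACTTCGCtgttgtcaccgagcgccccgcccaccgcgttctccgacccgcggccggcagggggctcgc
TXNRD1, second window, chr12:104286870-104286998, plus strand: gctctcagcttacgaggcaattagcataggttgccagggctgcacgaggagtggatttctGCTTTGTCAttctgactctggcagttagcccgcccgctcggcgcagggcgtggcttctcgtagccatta

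The core lay at bases -34 to -26 from the GCLM start, and at -99 to -91 and -102 to -94 from the 2 TXNRD1 starts. In GCLM and in the second TXNRD1 window the capitals are the core read on the opposite strand. The first TXNRD1 window held another core at its start, outside the run printed. The AP-1 site TGACTCA, which can overlap the core, was in 4.95% of all windows. The composite C/EBP-ATF site TGATGCAA was in 0.866% and the C/EBP site TTGCGCAA in 0.151%. None of these 3 was in a window of NFE2L2, NQO1, GCLM, GCLC, TXNRD1, SRXN1 or FTL. A match is a run of letters and not a bound site, and the absence of one covers these windows only.

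Levels between genes were compared in EV as CPM per kilobase of exon. FTL stood far above the others at 1499, and 0.0854% of the 15222 genes with a length were higher. FTH1 followed at 136, with 1.38% of genes above it. TXNRD1 (19.8), NFE2L2 (7.74), SLC7A11 (6.16), GCLC (4.51), GCLM (2.92) and NQO1 (2.09) lay in between, and HMOX1 was lowest of the tested genes at 0.608. The FTH1 level is uncertain, because 62.4% of its exon bases are shared with BEST1 on the opposite strand (20 to 87 counts per library), and the strand setting of the counting is not given in the sources used here.

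**Figure D1:**
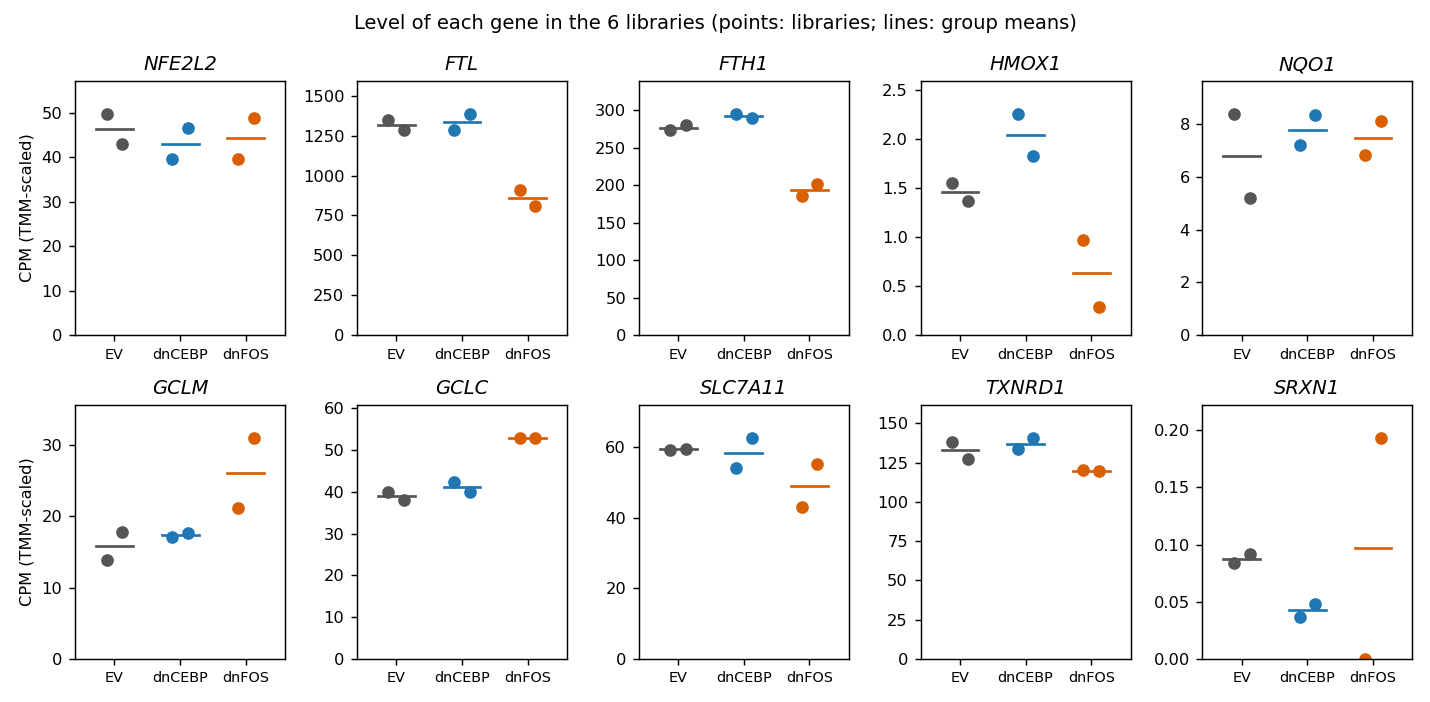
CPM of each gene (vertical axis, TMM-scaled, from 0) in EV, dnCEBP and dnFOS, with 1 point per library and a line at the mean of the 2. The dnFOS points of FTL and FTH1 sit below all 4 others and those of GCLM and GCLC above them, while the 3 groups of NFE2L2 and NQO1 overlap.

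The dnFOS peptide was accompanied by less ferritin RNA and more RNA of both subunits of glutamate-cysteine ligase. With edgeR's quasi-likelihood test and Benjamini-Hochberg adjustment over all genes tested, 4 of the 9 tested genes passed an adjusted p of 0.05 in dnFOS against EV. GCLM and GCLC were higher and FTH1 and FTL lower. Of all genes 15.0% passed in this comparison, 7.24% higher and 7.76% lower. The median log2 fold change was -0.15 over the 9 genes and 0.004 over all genes. In dnCEBP against EV none of the 9 passed, the smallest adjusted p being 0.683, where 1.07% of all genes did. At an unadjusted p under 0.05 the count was 0 of 9, where 11.9% of all genes passed, and DESeq2 and limma-voom also called 0.

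NFE2L2 RNA did not differ detectably with either peptide. The gene lies on chromosome 2 at 177227595 to 177392697, minus strand (GENCODE on GRCh38). Its level was 39.7 and 48.8 CPM in dnFOS, against 49.6 and 42.9 in EV and 39.6 and 46.5 in dnCEBP, so the 3 groups overlapped. The log2 fold change was -0.07 ± 0.12 (SE, n = 2 and 2) in dnFOS against EV (edgeR adjusted p = 0.741), with a 95% interval of -0.32 to 0.17. The dnCEBP value was -0.11 ± 0.12 (edgeR adjusted p = 0.779, interval -0.34 to 0.13). These intervals leave room for a change of up to about 0.3 on the log2 scale in either group. With libraries scaled by their totals alone, the dnFOS value turned to 0.03. NRF2 activity is set largely by the stability of the protein, which these data do not measure. The 5 genes with the most similar profile over the 6 libraries were ZCCHC8, HAUS2, DIAPH3, CWC22 and NUDCD2, whose centred log2 CPM differed from that of NFE2L2 by a root mean square of 0.041 to 0.053 (9961 genes compared).

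FTL, the ferritin light chain on chromosome 19 (48965301 to 48966878, plus strand), was 1347 and 1285 CPM in EV and 1283 and 1385 in dnCEBP. It was 911 and 807 CPM in dnFOS, below every other library. Against EV the level fell by 34.7%, or -0.61 ± 0.09 in log2 (SE), with edgeR's adjusted p at 1.54e-05. The 95% interval was -0.79 to -0.44.

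FTH1, the heavy chain with ferroxidase activity (chromosome 11, 61959718 to 61967660, minus strand), moved alongside. It was 186 and 201 CPM in dnFOS, against 273 and 280 in EV and 295 and 290 in dnCEBP. Again both dnFOS libraries lay below the other 4. Against EV the dnFOS level fell by 30.2%, or -0.52 ± 0.08 in log2 (SE, interval -0.69 to -0.35), with edgeR's adjusted p at 8.77e-05. In dnCEBP against EV the values were 0.02 ± 0.09 for FTL and 0.08 ± 0.08 for FTH1 (edgeR adjusted p = 0.961 and 0.771).

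The ferritin calls in dnFOS held under all 16 alternative settings, from -0.71 to -0.43 for FTL and from -0.58 to -0.42 for FTH1. Removing a smooth trend on GC content and length gave the -0.43 of FTL (edgeR adjusted p = 0.000524). Together FTL and FTH1 took 0.116% and 0.106% of all counts in dnFOS, against 0.158% and 0.155% in EV and 0.154% and 0.160% in dnCEBP. Ferritin genes have many processed pseudogenes, to which reads could be lost. The 25 FTH1 pseudogenes in the tables, with FTH1P16 and FTH1P3 the most counted, held 0.144% to 0.439% of the summed FTH1 and pseudogene counts in every library. The 16 FTL pseudogenes held at most 0.024% of theirs. How reads that match several places were counted is not given in the sources used here.

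HMOX1, heme oxygenase, which frees iron from heme, was scarce, and few counts stood behind its values. It lies on chromosome 22 (35380361 to 35394214, plus strand). The libraries held 15 and 3 counts in dnFOS, against 37 and 30 in EV and 61 and 38 in dnCEBP. In CPM, dnFOS was at 0.977 and 0.290, EV at 1.55 and 1.37, and dnCEBP at 2.26 and 1.83. The dnFOS libraries were below all others, with the second at the floor of 3 counts, and the dnCEBP libraries were above both EV libraries. In dnFOS against EV the log2 fold change was -1.10 ± 0.50 (SE), which did not pass (edgeR adjusted p = 0.142). For dnCEBP the difference was 0.49 ± 0.40 (edgeR adjusted p = 0.683). Of the 15 alternatives with an adjusted p, the dnFOS value passed only without dnFOS replicate 1 (-2.31, edgeR adjusted p = 0.0386) and was -0.58 without dnFOS replicate 2. The profiles most like that of HMOX1 were those of SLC24A3, RPL13AP25, TRAF1, RN7SL3 and HSPA6, at a root mean square difference of 0.22 to 0.35 log2 CPM, several times that found for NFE2L2.

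Glutamate-cysteine ligase makes the first and limiting step of glutathione synthesis, and its subunits both rose in dnFOS. GCLM, the modifier subunit (chromosome 1, 93885205 to 93909456, minus strand), was 21.2 and 31.0 CPM in dnFOS, against 13.8 and 17.8 in EV and 17.1 and 17.6 in dnCEBP. Both dnFOS libraries lay above the other 4, but they differed from each other by more than the other pairs did. Against EV the log2 fold change was 0.71 ± 0.16 (SE), a 1.64-fold level (edgeR adjusted p = 0.00314, interval 0.38 to 1.04). It was 0.42 without dnFOS replicate 2 and 0.54 without EV replicate 1, and passed in neither (edgeR adjusted p = 0.154 and 0.0646).

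GCLC, the catalytic subunit (chromosome 6, 53497341 to 53616970, minus strand), was at 52.9 CPM in each dnFOS library, against 39.9 and 38.1 in EV and 42.3 and 39.9 in dnCEBP. The groups of dnFOS and EV were well separated. Against EV, dnFOS had a log2 fold change of 0.44 ± 0.10 (SE), a 1.36-fold level (edgeR adjusted p = 0.00453, interval 0.22 to 0.65). Without EV replicate 2 it was 0.39 and no longer passed (edgeR adjusted p = 0.0634). In dnCEBP against EV the log2 fold changes were 0.14 ± 0.16 for GCLM and 0.08 ± 0.10 for GCLC (edgeR adjusted p = 0.800 and 0.842).

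**Figure D2:**
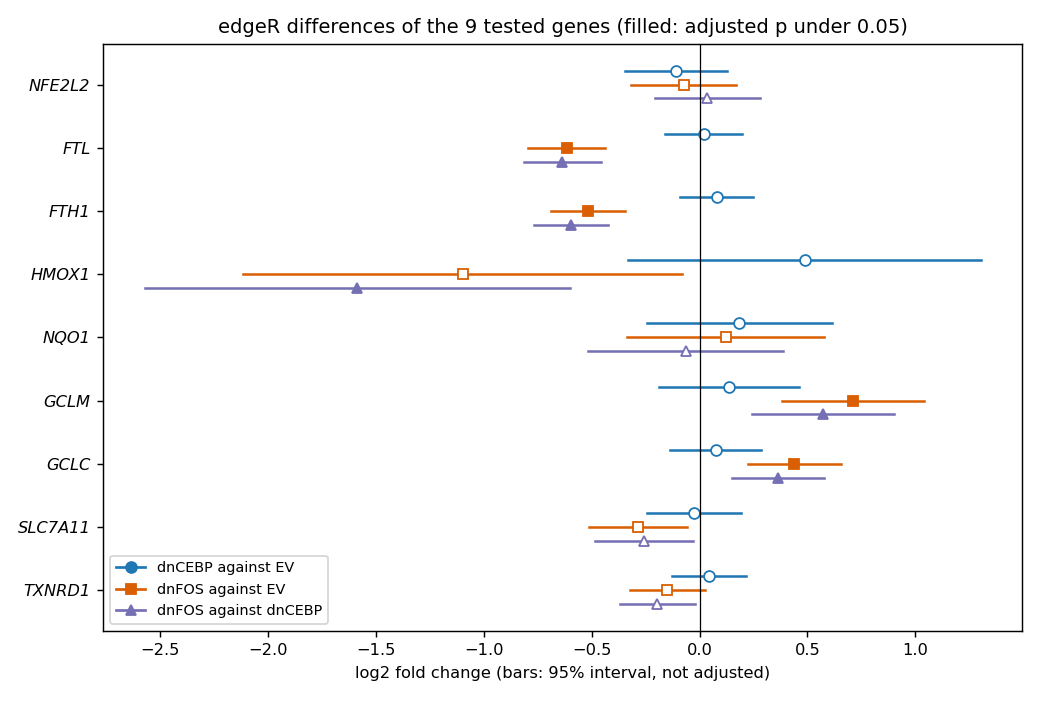
Log2 fold changes of the 9 tested genes (horizontal axis, bars giving unadjusted 95% intervals) for dnCEBP against EV, dnFOS against EV and dnFOS against dnCEBP, with filled markers at an edgeR adjusted p under 0.05. The open dnCEBP markers lie between -0.11 and 0.49, the filled markers of dnFOS against EV run from -0.61 for FTL to 0.71 for GCLM, and those of dnFOS against dnCEBP from -1.58 for HMOX1 to 0.57 for GCLM.

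A ratio of counts within a library needs no scaling between libraries. For every 100 counts of FTL and FTH1 together, GCLC and GCLM together had 6.75 and 8.32 in the dnFOS libraries. The EV libraries had 3.32 and 3.57 and the dnCEBP libraries 3.77 and 3.43. With 2 libraries against 2 an exact permutation test cannot go below p = 0.333, and none was run. This ratio was formed after the values of the genes were seen, from genes called higher over genes called lower, so its separation adds no support. It also does not remove a trend on GC content and length. With that trend removed, GCLM went to 0.45 and FTL to -0.43 in dnFOS against EV. Within each pair of subunits the groups overlapped. There were 4.91 and 4.01 FTL counts per FTH1 count in dnFOS, against 4.93 and 4.58 in EV and 4.35 and 4.78 in dnCEBP. GCLC had 2.50 and 1.70 counts per GCLM count in dnFOS, against 2.88 and 2.15 in EV and 2.47 and 2.26 in dnCEBP.

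**Figure D3:**
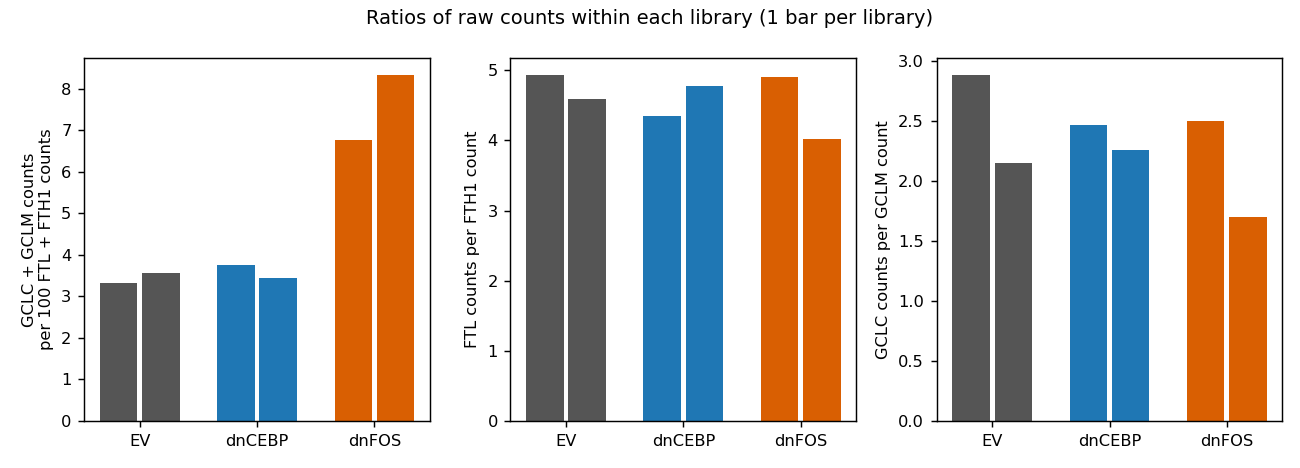
Ratios of raw counts within each library (vertical axes, from 0), with 1 bar per library in EV, dnCEBP and dnFOS. The ratio of ligase to ferritin counts is 6.75 and 8.32 in dnFOS and at most 3.77 elsewhere, while the FTL to FTH1 and GCLC to GCLM ratios overlap between groups.

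SLC7A11, which imports cystine for glutathione synthesis (chromosome 4, 138164097 to 138242349, minus strand), did not pass against EV with either peptide. It was 43.0 and 55.1 CPM in dnFOS, against 59.3 and 59.6 in EV and 54.1 and 62.7 in dnCEBP. Both dnFOS libraries lay below both EV libraries, but 1 of them lay above a dnCEBP library. Against EV, dnFOS differed by -0.29 ± 0.11 in log2 (SE, edgeR adjusted p = 0.0793), while dnCEBP differed by -0.03 ± 0.11 (edgeR adjusted p = 0.954). Its transcript has a GC content of 35.4%, the lowest of the 10 genes. Without dnFOS replicate 1 the dnFOS value was -0.11, without dnFOS replicate 2 it was -0.47, and with library totals alone it was -0.19 (edgeR adjusted p = 0.611, 0.00922 and 0.267). With the trend on GC content and length removed, it was -0.63 and passed (edgeR adjusted p = 5.23e-06). GCLM, at 37.3% GC, went to 0.45 under the same setting and still passed (edgeR adjusted p = 0.0255).

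TXNRD1, thioredoxin reductase, which carries the element cores shown above, was 120 and 119 CPM in dnFOS, against 138 and 128 in EV and 133 and 141 in dnCEBP. The gene spans 104215779 to 104350305 on the plus strand of chromosome 12. The dnFOS libraries lay below the other 4, by little. The log2 fold change was -0.15 ± 0.09 (SE) in dnFOS against EV and 0.04 ± 0.08 in dnCEBP (edgeR adjusted p = 0.257 and 0.892).

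NQO1, quinone reductase and a widely used readout of NRF2 (chromosome 16, 69706996 to 69726951, minus strand), was 6.84 and 8.12 CPM in dnFOS, against 8.39 and 5.22 in EV and 7.22 and 8.35 in dnCEBP. The EV libraries spanned both other groups. The log2 fold change was 0.12 ± 0.22 (SE) in dnFOS, with an interval of -0.34 to 0.58, and 0.18 ± 0.21 in dnCEBP (edgeR adjusted p = 0.775 and 0.797). The dnFOS interval leaves room for a fall to -0.34 or a rise to 0.58 on the log2 scale.

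SRXN1, sulfiredoxin (chromosome 20, 646615 to 653370, minus strand), had 0 to 2 counts in every library, under the floor of 3, so no fold is given. Of its exon bases 85.0% are shared with AL121758.1, another protein-coding gene annotated on the same strand, which had 0 counts in all 6 libraries. Reads assigned to neither gene would not be seen in these tables, so the counts cannot be read as the level of SRXN1.

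In all, both dnFOS libraries were on 1 side of both EV libraries for 7 of the 9 tested genes, where 56.7% of all genes were. Those outside were NFE2L2 and NQO1. In size, GCLM was among the 6.11% of genes with the largest positive log2 fold changes in dnFOS against EV and GCLC among 13.7%. FTL was among the lowest 8.15%, FTH1 among 10.7% and HMOX1 among 2.75%.

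The peptides were also compared with each other, which tests whether the responses differ. In dnFOS against dnCEBP 5 of the 9 genes passed, where 14.7% of all genes did. GCLM (0.57 ± 0.16, SE) and GCLC (0.36 ± 0.10) were higher in dnFOS (edgeR adjusted p = 0.0146 and 0.017). HMOX1 was lower (-1.58 ± 0.48, edgeR adjusted p = 0.024), as were FTH1 (-0.60 ± 0.08, edgeR adjusted p = 7.51e-06) and FTL (-0.63 ± 0.09, edgeR adjusted p = 5.66e-06). SLC7A11 (-0.26 ± 0.11), TXNRD1 (-0.20 ± 0.09), NQO1 (-0.06 ± 0.22) and NFE2L2 (0.04 ± 0.12) did not pass (edgeR adjusted p = 0.121, 0.127, 0.893 and 0.892). Without dnCEBP replicate 1, or without dnCEBP replicate 2, 2 of the 5 calls were left (FTH1 and FTL), and without dnFOS replicate 2 there were 3 calls, those 2 and SLC7A11. With the trend on GC content and length removed there were 7 calls, SLC7A11 (-0.49) and TXNRD1 (-0.23) being added (edgeR adjusted p = 0.000112 and 0.0259). SLC7A11 was -0.44 without dnFOS replicate 2, but -0.15 without dnCEBP replicate 2 and -0.08 without dnFOS replicate 1. DESeq2 and limma-voom gave HMOX1 an adjusted p of 0.0561 and 0.0579. This comparison and the one with EV share the dnFOS libraries, so their values are not independent.

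The rest of the pathway was read from 5 lists, also chosen with earlier results of these data known. Their shares of calls are descriptive only. They held 109 other genes, of which 98 were tested. In dnFOS against EV 6 rose and 16 fell, together 22.4% where 15.0% of all genes passed. With libraries scaled by their totals alone, 11 of 24 calls were rises, where 1905 of 2581 calls over all genes were. The median of the 98 log2 fold changes was -0.05. With dnCEBP 4 rose and 2 fell (6.12% against 1.07%), and the median was -0.02. Leaving out dnFOS replicate 2 gave fewer calls in dnFOS against EV, among these genes as over all genes.

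Among regulators and partners of NRF2, 4 of 15 passed in dnFOS against EV (26.7%), where 15.0% of all genes did. GSK3B, a kinase that marks NRF2 for degradation, rose by 0.32 ± 0.10 in dnFOS (edgeR adjusted p = 0.0237), while SQSTM1, MAFF and NFE2 fell. SQSTM1 encodes p62, which binds KEAP1, and went from a mean of 93.4 ± 4.9 CPM in EV to 51.6 ± 1.7 in dnFOS (SD, n = 2 each), or -0.85 ± 0.09 in log2 (SE), with edgeR's adjusted p at 2.31e-07. MAFF, a small MAF partner, was at -0.77 ± 0.19 (edgeR adjusted p = 0.00626), and NFE2, a relative of NRF2, at -0.27 (edgeR adjusted p = 0.0496). NFE2 was 102.6 and 81.4 CPM in dnFOS, against 113.9 and 108.9 in EV. KEAP1 itself was 46.4 and 38.5 CPM in EV and 38.2 and 36.2 in dnFOS, a difference of -0.19 ± 0.12 in log2 (edgeR adjusted p = 0.299). BACH1, the repressor of HMOX1, was 100.2 and 98.8 CPM in EV and 99.4 and 103.7 in dnFOS (0.03 ± 0.08, edgeR adjusted p = 0.866). In dnCEBP against EV none of the 15 passed.

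Of 35 other genes listed as NRF2 targets, 1 rose and 6 fell in dnFOS against EV, a share of 20% that is near the 15.0% of all genes. The riser was PRDX1, a peroxiredoxin, by 0.45 in dnFOS and 0.40 in dnCEBP (edgeR adjusted p = 0.000674 and 0.0141). The largest fall was that of CD36, a fatty acid transporter, at -1.98 ± 0.34 (edgeR adjusted p = 0.000173), on 17 and 6 counts in dnFOS and 76 and 84 in EV. With dnCEBP it went the other way, by 1.32 ± 0.23 (edgeR adjusted p = 0.00162). ABCC4, an efflux transporter, showed the same opposed signs, at -0.48 in dnFOS and 0.42 in dnCEBP (edgeR adjusted p = 0.000273 and 0.00678). SESN2 (-0.91), a stress-induced sestrin, and BLVRB (-0.70), a biliverdin reductase, fell in dnFOS (edgeR adjusted p = 0.0025 and 0.00437). The other falls were those of PGD and TKT, enzymes of the pentose phosphate pathway.

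The cystine and glutathione genes had the highest share of calls of the 5 pathway lists in dnFOS against EV. Of 14, 2 rose and 6 fell (57.1%), where 15.0% of all genes passed. SLC3A2, the heavy chain that pairs with SLC7A11 in the cystine transporter, went from 167 ± 11 to 78.9 ± 9.9 CPM (SD, n = 2 each), or -1.08 ± 0.09 in log2 (SE), with edgeR's adjusted p at 1.46e-09. CHAC1, which breaks down glutathione, was at -1.68 ± 0.37, and its relative CHAC2 at 1.17 ± 0.29 (edgeR adjusted p = 0.00265 and 0.00672). Few counts stood behind them. CHAC1 had 26 and 10 in dnFOS and 146 and 59 in EV, so its EV libraries lay far apart. CHAC2 had 66 and 57 in dnFOS and 59 and 40 in EV. GGT1, which cleaves glutathione outside the cell, was at -1.01 ± 0.26 (edgeR adjusted p = 0.00694). GPX1, GPX4 and GSS fell as well and LANCL1 rose. The ligase subunits rose in the same libraries in which SLC3A2 and the next enzyme, glutathione synthetase (GSS), fell. None of the 14 passed in dnCEBP against EV.

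Of 22 genes of heme and iron handling, 13.6% passed in dnFOS against EV, no more than the 15.0% of all genes. IREB2 (0.42 ± 0.09) and FLVCR1 (0.45 ± 0.15) rose in dnFOS and BLVRA (-0.68 ± 0.23) fell (edgeR adjusted p = 0.00207, 0.0491 and 0.0402). IREB2 encodes an iron regulatory protein that represses ferritin translation, FLVCR1 exports heme, and BLVRA reduces biliverdin, the product of HMOX1. In dnCEBP the iron reductase gene STEAP3 fell by 0.55 (edgeR adjusted p = 0.0392). Among 12 other antioxidant enzymes none passed in dnFOS, the smallest edgeR adjusted p being 0.134. In dnCEBP SOD2, the mitochondrial superoxide dismutase, rose by 0.58 ± 0.08, and CAT, catalase, was at -0.60 ± 0.08 (edgeR adjusted p = 0.000163 and 0.000152).

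**Figure D4:**
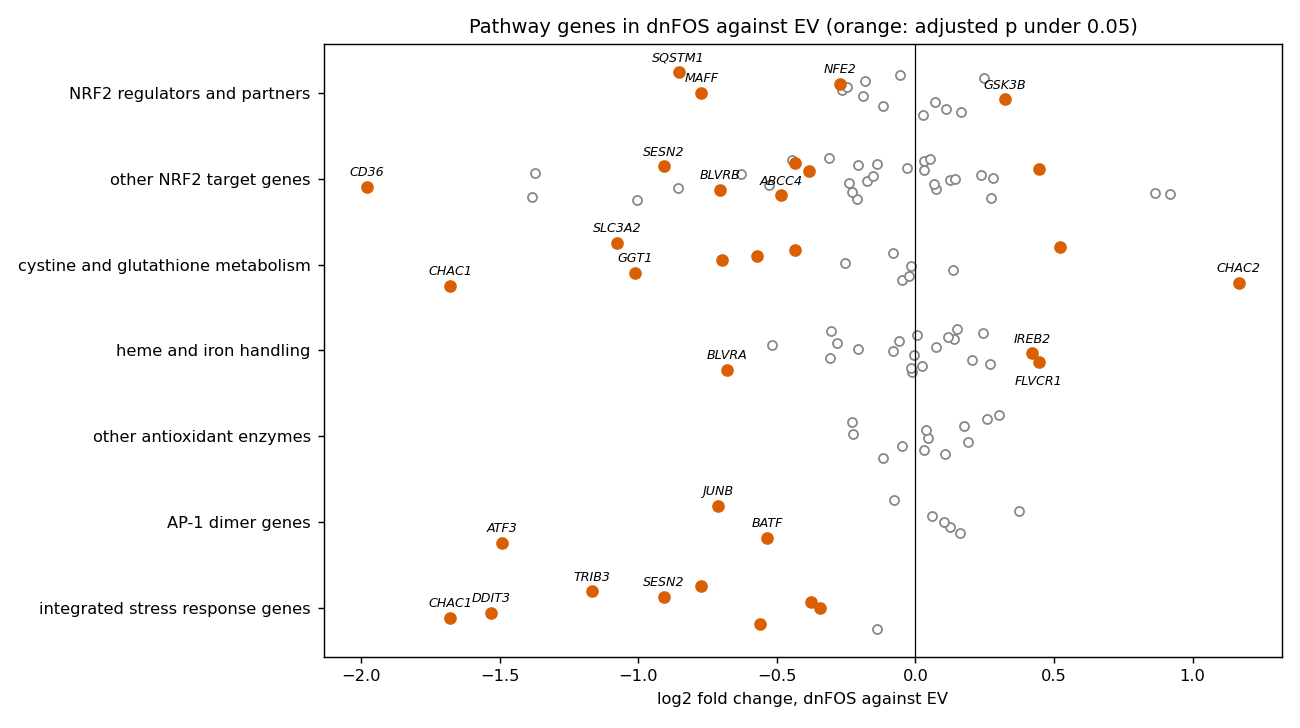
Log2 fold changes in dnFOS against EV (horizontal axis) of the tested genes of each list, 1 point per gene, orange at an edgeR adjusted p under 0.05, with the genes named by rule labelled. Most orange points lie left of 0, from CD36 at -1.98, and CHAC2 stands alone at 1.17.

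The AP-1 and stress response lists were read beside these because their factors can bind some of the same promoters. They too were chosen with earlier results of these data known. Of 9 AP-1 dimer genes, 3 passed in dnFOS against EV (33.3%), where 15.0% of all genes did, and none passed in dnCEBP. ATF3 (-1.49 ± 0.46), JUNB (-0.71 ± 0.19) and BATF (-0.53 ± 0.17) fell in dnFOS (edgeR adjusted p = 0.0272, 0.0105 and 0.0279). The ATF3 value rests on 8 and 11 counts in dnFOS and 59 and 39 in EV. Of 9 genes of the integrated stress response, the ATF4 programme that also drives amino acid transport, 8 were called lower in dnFOS against EV (88.9%). Of all genes 7.76% were called lower. All 9 log2 fold changes were below 0, with a median of -0.77. DDIT3 went from 68.6 ± 6.1 to 23.7 ± 1.3 CPM (SD, n = 2 each), or -1.53 ± 0.11 in log2 (SE), with edgeR's adjusted p at 1.16e-10. TRIB3 was at -1.17 ± 0.12, and was lower in dnCEBP too (-0.90 ± 0.12, edgeR adjusted p = 1.02e-07 and 4.75e-05). In dnCEBP against EV 2 of the 9 stress response genes passed (22.2%), where 1.07% of all genes did. CHAC1 and SESN2, named above, belong to this list as well, and the part of the stress response in the values of SLC7A11 and SLC3A2 was not tested.

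**Figure D5:**
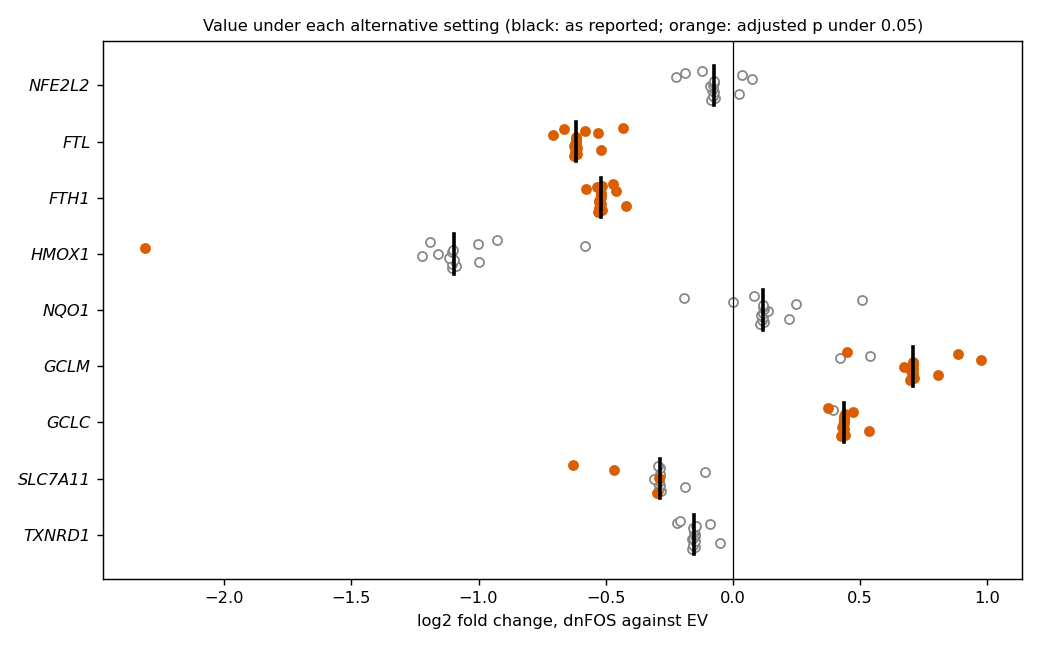
Log2 fold change of the 9 genes in dnFOS against EV (horizontal axis) under each alternative setting, 1 point per setting, orange where the adjusted p was under 0.05, with a black bar at the value reported. All points of FTL and FTH1 are orange and below 0, those of NFE2L2 and NQO1 fall on both sides of 0, and HMOX1 ranges from -2.31 to -0.58.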

How the data were processed

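RNA was measured in 6 KO52 libraries. Each library has a deposited table of unnormalized counts, made by the authors from paired-end reads of ribosome-depleted total RNA. Their processing notes name Trimmomatic, HISAT2, featureCounts and hg38. Versions, annotation, strand setting and the counting of reads that match several places are not given in the sources used here.

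Groups and replicate numbers came from sample titles. IDs were matched to GENCODE on GRCh38 (58394 of 60612). Genes were filtered with filterByExpr (minimum count 10), scaled by TMM, and fitted in edgeR 4.0.16 (R 4.3.3, quasi-likelihood, robust) over all 6 libraries without covariates, with 3 residual degrees of freedom. The 3 contrasts were tested two-sided, with Benjamini-Hochberg adjustment over 15395 genes and calls under 0.05. Intervals at 95% are unadjusted, and like the SEs they use a spread shared in part across genes. At 3 counts, the floor of a scaled library was 0.111 to 0.290 CPM, covering counting error only.

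The 10 genes and the gene lists were chosen with earlier results of these data known. Up to 4 genes of each list were named, those with the largest fold change among calls against EV. KEAP1, BACH1, the 5 nearest profiles and the 2 most counted ferritin pseudogenes were added by rule. PRDX1, PGD, TKT, GPX1, GPX4, GSS, LANCL1, BEST1, MPO, PTPRC and CD3D were named after their values were seen.

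Alternatives included DESeq2 1.42.0, limma-voom (limma 3.58.1), other filters and scalings, the replicate number as a block, removal of a GC and length trend, and each library left out. On simulated counts for dnFOS against EV (15395 genes, 200 changed), edgeR recovered 79% of 2-fold and 94% of 4-fold changes, with 7 false calls. These counts were drawn independently at the fitted spread, with no trend on GC content. The 4 genes called in dnFOS against EV changed by less than 2-fold, a size that was not simulated.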

Additional observations from a re-analysis of the deposited data

Results flagged for a closer look

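HMOX1, GCLM, GCLC, FTH1 and FTL responded differently to the peptides, by the direct edgeR test of dnFOS against dnCEBP. The log2 difference was -1.58 for HMOX1, 0.57 for GCLM, 0.36 for GCLC, -0.60 for FTH1 and -0.63 for FTL. The edgeR adjusted p was 0.024, 0.0146, 0.017, 7.51e-06 and 5.66e-06. The HMOX1 value rests on 15 and 3 counts in dnFOS, and its adjusted p ran from 0.00784 to 0.246 over the alternatives. For FTH1 and FTL it stayed at or under 0.000255, for GCLM it ran from 0.000257 to 0.383 and for GCLC from 0.00211 to 0.12. Without dnFOS replicate 1 the difference was -2.80 for HMOX1 and 0.84 for GCLM, and without dnFOS replicate 2 it was -1.07 and 0.29.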

How the results depend on the processing

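Direction and side of the threshold were kept in 135 of 144 values of the 9 genes in dnCEBP against EV, 131 of 143 in dnFOS against EV and 124 of 144 in dnFOS against dnCEBP. With library totals alone, signs turned for FTL in dnCEBP against EV (-0.00386), NFE2L2 in dnFOS against EV (0.0259) and NQO1 in dnFOS against dnCEBP (0.0575), and the median of all genes moved to 0.102 in dnFOS against EV and 0.145 in dnFOS against dnCEBP, with 1905 of 2581 and 2101 of 2815 calls higher. Leaving out each replicate in turn, log2 values in dnCEBP against EV ran from -0.0361 to 0.0738 for FTL, -0.226 to 0.00552 for NFE2L2, -0.119 to 0.572 for NQO1, -0.0324 to 0.321 for GCLM, -0.0180 to 0.104 for TXNRD1 and -0.136 to 0.0759 for SLC7A11. In dnFOS against EV they ran from -0.224 to 0.0762 for NFE2L2 and -0.190 to 0.508 for NQO1, and in dnFOS against dnCEBP from -0.116 to 0.185 for NFE2L2 and -0.183 to 0.0653 for NQO1. Calls among the 9 genes then ran from 2 to 5 in dnFOS against dnCEBP and from 3 to 5 in dnFOS against EV. Calls among the other pathway genes ran from 3 to 7 in dnCEBP against EV, 14 to 23 in dnFOS against EV and 14 to 26 in dnFOS against dnCEBP. A lone remaining library was assumed to vary like the other groups. Calls over all genes in dnCEBP against EV were 33 to 314 without a library (33 without dnCEBP replicate 2), 255 unfiltered, 297 from 4 libraries and 262 without the GC and length trend, against 165. In dnFOS against EV they were 972 without dnFOS replicate 2 and 1059 without EV replicate 1, against 2309. In dnFOS against dnCEBP they were 1182 without dnFOS replicate 2, 1349 without dnCEBP replicate 1 and 1531 without dnCEBP replicate 2, against 2259. SLC7A11 also passed in dnFOS against EV unfiltered (-0.298), without dnFOS replicate 2 (-0.468) and with the block, but was at -0.109 without dnFOS replicate 1 and -0.188 with library totals alone. Deviations of same-numbered libraries correlated at 0.0174, 0.0281 and 0.0879 over the tested genes. These correlations do not settle whether libraries of the same number were paired, and the sources used here do not say. The replicate block gave 10 calls among other pathway genes in dnCEBP against EV against 6, raised all-gene calls to 488, 3172 and 3013, and let SLC7A11 pass in dnFOS against EV (-0.292, edgeR adjusted p = 0.0186) and dnFOS against dnCEBP (-0.259, edgeR adjusted p = 0.0412). It changed no other call among the 9 genes. The cause of these shifts was not tested. HMOX1 and SRXN1 had the fewest counts of the 10 genes.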
